A study of Mus musculus with 16 samples.

Results

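The 5 genes described are Slc2a1, Aldoa, Tpi1, Gapdh and Pgk1, a glucose transporter and 4 enzymes of glycolysis, chosen by symbol from the 8551 genes that the deposited table names. They were chosen with earlier results of these data known. All 5 were found, joined to their rows of the table and tested. The RNA came from CD4 T cells, purified from C57BL/6J mice aged 2 months that carried Rosa26-CreERT2 on 1 allele, a Cre recombinase driven by a locus active in most cell types and switched on by tamoxifen, and 2 floxed alleles of Sin3a. Sin3A holds together a corepressor complex with histone deacetylases. The 4 groups compared had 4 libraries each, and every group had first spent 6 days in IL-7, a survival cytokine of T cells. Deficient Th17 cells received tamoxifen during those days and then 3 days of Th17 polarization, and sufficient Th17 cells went through the same steps without tamoxifen. Deficient IL-7 cells received tamoxifen and sufficient IL-7 cells did not, and both stayed at the IL-7 stage. Every deficient library had tamoxifen and no sufficient one did, so effects of the drug and of the deletion cannot be told apart. The libraries are called D3TAM (Th17 deficient), D3 (Th17 sufficient), BASALTAM (IL-7 deficient) and BASAL (IL-7 sufficient), with endings such as D3TAM955, D3TAM957, D3TAM959 and D3TAM960. Values of the 4 libraries of a group are given in that order, and the same 4 endings recur in every group.

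Glycolysis breaks glucose down to pyruvate in the cytosol and yields ATP and building blocks. Slc2a1 encodes Glut1, the main glucose transporter of activated T cells, and T cells that are activated or polarized towards Th17 are known to raise glucose uptake and glycolytic flux. Aldolase (Aldoa) splits fructose 1,6-bisphosphate, triose phosphate isomerase (Tpi1) interconverts the resulting trioses, glyceraldehyde 3-phosphate dehydrogenase (Gapdh) oxidizes the triose, and phosphoglycerate kinase (Pgk1) makes ATP in the step that follows. The transcription factor HIF-1, a dimer of Hif1a and Arnt, is known to activate genes of the pathway through a core DNA element.

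A library held 19749270 to 28628892 restored reads, and a level below is a normalized count, that is reads divided by the size factor of the library. The T cell genes Cd3d, Cd3e, Cd4 and Thy1, 4 of 5 listed, summed to 22618 to 26687 normalized counts in deficient and 37448 to 41491 in sufficient Th17 libraries. They summed to 45598 to 50099 in deficient and 49828 to 56013 in sufficient IL-7 libraries. Il17a, the signature cytokine of Th17 cells, averaged 203 ± 98.9 normalized counts in deficient and 2557 ± 1201 in sufficient Th17 cells (SD, n = 4 each), and under 5 in every IL-7 library. Sin3a itself averaged 1774 ± 49.8 normalized counts in deficient and 2106 ± 181 in sufficient Th17 cells, and 2211 ± 98.2 in deficient and 2524 ± 249 in sufficient IL-7 cells (SD, n = 4 each). The labels do not say which exons are floxed, and reads from other exons stay countable, so this level does not check the deletion. Names were given in the table to genes listed as lower in deficient Th17 cells only, so the downward direction of all named genes in that comparison comes with the table, and nothing is read from it.

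The promoters of the 5 genes are shown because the genes moved together and HIF-1 genes are described further on. Each window is 300 bases of RefSeq sequence on build GRCm38.p6, from 250 bases before the transcription start to 50 after it, and the reads were aligned to another build. Capitals mark the HIF core ACGTG or GCGTG, printed as CACGT or CACGC where it lies on the other strand. Aldoa has 3 listed starts, of which the middle one is shown.
Slc2a1, chr4:119108495-119108794, plus strand: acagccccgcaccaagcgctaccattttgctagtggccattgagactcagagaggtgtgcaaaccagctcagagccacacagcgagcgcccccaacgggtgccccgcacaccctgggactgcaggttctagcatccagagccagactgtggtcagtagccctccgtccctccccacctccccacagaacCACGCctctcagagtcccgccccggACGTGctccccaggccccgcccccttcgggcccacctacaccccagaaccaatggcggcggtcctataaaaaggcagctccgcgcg
Aldoa, chr7:126799205-126799504, minus strand: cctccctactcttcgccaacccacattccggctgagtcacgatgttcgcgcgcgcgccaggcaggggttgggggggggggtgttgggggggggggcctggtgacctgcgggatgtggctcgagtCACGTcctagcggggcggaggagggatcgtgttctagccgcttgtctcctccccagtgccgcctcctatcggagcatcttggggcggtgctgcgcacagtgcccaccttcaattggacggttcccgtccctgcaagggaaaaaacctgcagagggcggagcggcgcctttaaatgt
Tpi1, chr6:124814109-124814408, minus strand: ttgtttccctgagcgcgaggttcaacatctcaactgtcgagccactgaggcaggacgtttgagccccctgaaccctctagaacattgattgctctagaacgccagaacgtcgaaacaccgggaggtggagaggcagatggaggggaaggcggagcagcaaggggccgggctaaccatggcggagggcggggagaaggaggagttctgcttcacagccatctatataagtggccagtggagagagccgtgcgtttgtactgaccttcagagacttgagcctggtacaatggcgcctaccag
Gapdh, chr6:125165724-125166023, minus strand: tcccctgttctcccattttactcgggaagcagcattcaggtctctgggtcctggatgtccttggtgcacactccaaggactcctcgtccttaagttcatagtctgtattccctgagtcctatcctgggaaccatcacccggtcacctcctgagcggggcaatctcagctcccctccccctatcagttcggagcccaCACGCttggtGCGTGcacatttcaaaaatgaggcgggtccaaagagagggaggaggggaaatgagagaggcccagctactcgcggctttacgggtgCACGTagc
Pgk1, chrX:106186850-106187149, plus strand: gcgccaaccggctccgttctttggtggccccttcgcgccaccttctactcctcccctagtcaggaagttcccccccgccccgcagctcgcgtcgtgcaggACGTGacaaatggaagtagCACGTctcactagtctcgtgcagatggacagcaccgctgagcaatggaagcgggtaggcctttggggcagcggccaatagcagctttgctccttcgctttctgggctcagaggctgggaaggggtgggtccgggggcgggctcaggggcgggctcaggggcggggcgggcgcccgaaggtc

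The windows of Slc2a1 and Pgk1 held 2 matches each, at -61 and -36 and at -150 and -131 from the start, counted to the first base of the match as printed. Gapdh held 3 matches, at -54, -44 and 43. The Aldoa window shown held 1 match, at -126, while the window of its first start held 0 and that of the last start held 1, at -202, which is the same stretch of DNA. Tpi1 held 0 matches. Of 32851 mouse promoter windows of this length, 43.8% held at least 1 such match and 20.6% held 2 or more. None of the windows of the 5 genes held the E-box CACGTG, whose letters include CACGT and ACGTG, and 7.15% of all windows did. A match is a stretch of letters and not a measured binding site.

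The glucose transporter and the 4 enzymes were all lower in deficient than in sufficient Th17 cells, the direction in which all named genes were listed. They stood at 0.501-fold (Pgk1) to 0.745-fold (Aldoa) of the sufficient level. None of the 4 deficient libraries reached the lowest sufficient library for any of them. How many other rows separate in this way was not counted, and 28.4% of all rows and 55% of named rows were called lower. In cells kept in IL-7, the same deletion left no called change in any of the 5. The Th17 libraries had 3 more days of culture than the IL-7 libraries, so effects of polarization and of longer culture cannot be told apart. All 5 genes were higher in Th17 than in IL-7 cells, among deficient as among sufficient cells. Together they took 0.496% ± 0.0983 of the reads in deficient and 0.816% ± 0.0520 in sufficient Th17 cells, and 0.0915% ± 0.00848 in deficient and 0.0895% ± 0.0161 in sufficient IL-7 cells (SD, n = 4 each). In bulk libraries, fewer cells of a type and less RNA per cell cannot be told apart.

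**Figure D1:**
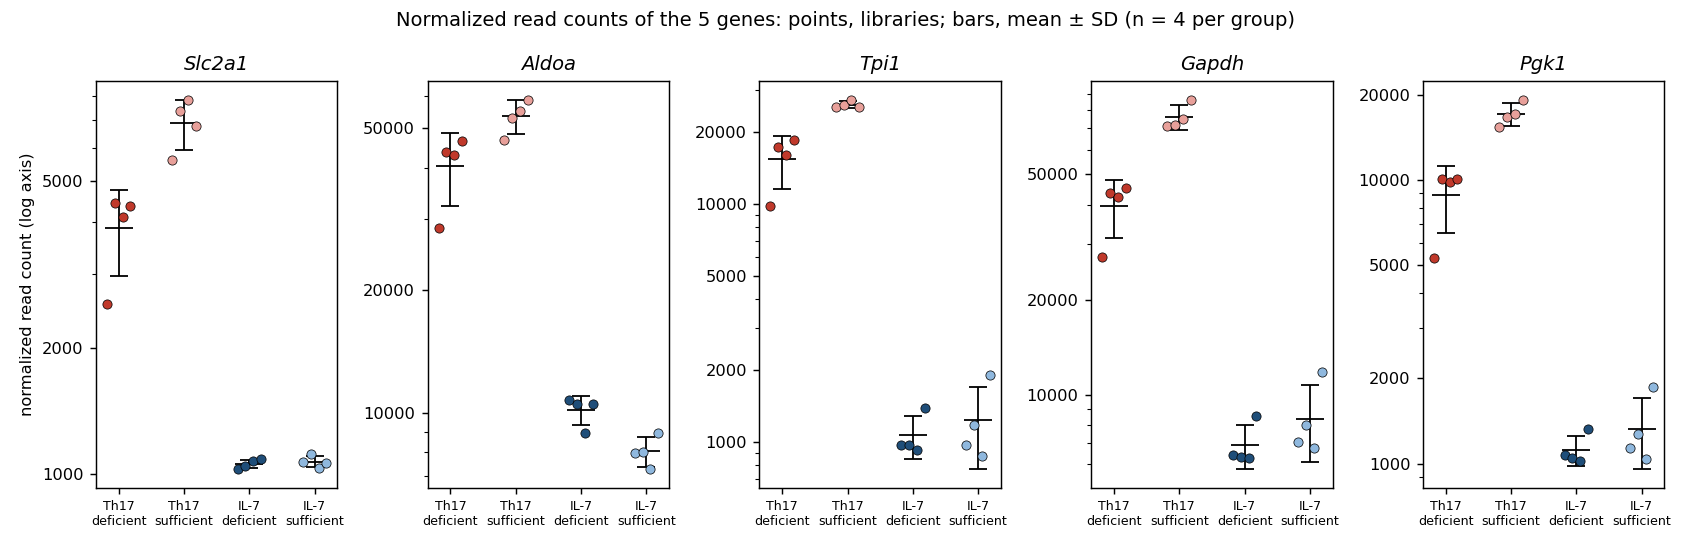
Normalized read counts (log axis) of the 5 genes in the 16 libraries. Points are libraries in the order of their endings within a group, and bars are the mean ± SD of 4 libraries. In each panel the deficient Th17 libraries lie below the sufficient Th17 libraries and above all IL-7 libraries. The number of other rows that separate in this way was not counted.

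Slc2a1 (ENSMUSG00000028645), the transporter, had 2543, 4444, 4108 and 4365 normalized counts in the 4 deficient Th17 libraries, against 5629, 7347, 7826 and 6773 in the 4 sufficient ones. Library D3TAM955 was the lowest of the deficient ones, and the groups did not overlap. The change was -0.86 ± 0.14 on the log2 scale (SE, limma adjusted p = 3.64e-05). In IL-7 cells Slc2a1 had 1029, 1047, 1074 and 1086 normalized counts in deficient libraries, against 1071, 1117, 1037 and 1067 in sufficient ones. These values lay within each other's range, and the change was -0.02 ± 0.14 (limma adjusted p = 0.972). Slc2a1 was the steadiest of the 5 at the IL-7 stage, with SDs of 25.9 and 33.1 normalized counts in deficient and sufficient cells around means of 1059 and 1073.

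Aldoa (ENSMUSG00000030695), the aldolase, had 28385, 43692, 43050 and 46635 normalized counts in the 4 deficient Th17 libraries, against 46753, 53000, 55285 and 58846 in sufficient ones. The highest deficient library, D3TAM960, came within 1% of the lowest sufficient library, D3955, without passing it. The change was the smallest of the 5, -0.42 ± 0.13 on the log2 scale (SE, limma adjusted p = 0.00799), and it was -0.26 (limma adjusted p = 0.0237) without D3TAM955. In IL-7 cells Aldoa had 10762, 10496, 8948 and 10523 normalized counts in deficient libraries, against 7964, 8010, 7274 and 8936 in sufficient ones. Here all 4 deficient libraries were above all 4 sufficient ones, by 1.27-fold. That difference did not pass the threshold, at 0.34 ± 0.13 on the log2 scale (limma adjusted p = 0.14), and it passed when D3TAM955 was left out of the shared spread (limma adjusted p = 0.0299).

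Tpi1 (ENSMUSG00000023456), the isomerase, had 9821, 17314, 15966 and 18545 normalized counts in the 4 deficient Th17 libraries, against 25409, 26043, 27430 and 25556 in sufficient ones. The sufficient libraries were close to each other, the deficient ones spread more widely, and the groups did not overlap. The change was -0.80 ± 0.21 on the log2 scale (SE, limma adjusted p = 0.00341). In IL-7 cells Tpi1 had 971, 971, 930 and 1393 normalized counts in deficient libraries, against 975, 1182, 873 and 1905 in sufficient ones. BASALTAM960 and BASAL960 were the highest of their groups, the groups overlapped, and the change was -0.16 ± 0.21 (limma adjusted p = 0.754), or 0.07 without BASAL960.

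Gapdh (ENSMUSG00000057666), the dehydrogenase that is often used as a reference gene, had 27318, 43787, 42336 and 45230 normalized counts in the 4 deficient Th17 libraries, against 70998, 71922, 74920 and 86471 in sufficient ones. The highest deficient library had far fewer counts than the lowest sufficient one. The change was -0.96 ± 0.17 on the log2 scale (SE, limma adjusted p = 0.000114). In IL-7 cells Gapdh had 6446, 6315, 6284 and 8565 normalized counts in deficient libraries, against 7058, 8010, 6746 and 11752 in sufficient ones. The deficient libraries other than BASALTAM960 were below all sufficient ones, and the change was -0.26 ± 0.17 (limma adjusted p = 0.466), or -0.08 without BASAL960. Gapdh has many processed pseudogenes in mouse, and how reads shared with such copies were counted is not given in the sources used here.

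Pgk1 (ENSMUSG00000062070), the kinase, had 5325, 10058, 9870 and 10072 normalized counts in the 4 deficient Th17 libraries, against 15405, 16743, 17092 and 19238 in sufficient ones. The deficient libraries other than D3TAM955 were nearly equal, D3TAM955 was lower, and the groups did not overlap. The change was the largest of the 5, -0.998 ± 0.19 on the log2 scale (SE, limma adjusted p = 0.0002). In IL-7 cells Pgk1 had 1074, 1045, 1023 and 1320 normalized counts in deficient libraries, against 1131, 1269, 1041 and 1866 in sufficient ones. The groups overlapped, and the change was -0.22 ± 0.19 (limma adjusted p = 0.596), or -0.04 without BASAL960.

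Thus 5 of 5 were called lower in deficient Th17 cells, where 28.4% of all 14040 rows tested and 55% of the 6621 named rows were called lower. In IL-7 cells limma called 0 of 5, where it called 4.28% of all rows and 4.11% of named rows. There Aldoa alone had an unadjusted p under 0.05, and 0 of 5 were called with voom weights. The difference between the deletion effects at the 2 stages, tested as an interaction, was called for 4 of 5, where 17.9% of all rows and 34.8% of named rows were called in the lower direction. It was -0.84 ± 0.19 for Slc2a1 (limma adjusted p = 0.0024), -0.76 ± 0.18 for Aldoa (0.00273), -0.78 ± 0.27 for Pgk1 (0.0277) and -0.70 ± 0.24 for Gapdh (0.0283). For Tpi1 it was -0.64 ± 0.30 and did not pass (limma adjusted p = 0.0992), and it passed without BASAL960, at -0.870 (0.00755). The calls for Gapdh and Pgk1 were near the threshold and were lost when any of several libraries was left out, while those for Slc2a1 and Aldoa held whichever library was left out. The 3 days of polarization came after the days with tamoxifen. Effects of stage and of time since tamoxifen therefore cannot be told apart in the interaction.

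The pathway list held 23 genes, of which 17 could be tested. In deficient Th17 cells 13 of 17 were called lower, beside 28.4% of all rows and 55% of named rows. The median change of the 17 was -0.59 on the log2 scale, beside -0.03 over all rows and -0.41 over named rows. Without D3TAM955, 13 of 17 fell and the median was -0.42. In the upper part of the pathway, the isomerase Gpi1 fell by 0.39 (limma adjusted p = 0.0139). Gpi1 did not pass in the authors' deposited test of this contrast (adjusted p = 0.104). The phosphofructokinase subunit Pfkm fell by 0.41. The other phosphofructokinase subunits were not called, with -0.31 for Pfkp (limma adjusted p = 0.051) and -0.14 for Pfkl (0.262), and neither was the hexokinase Hk3, with -0.59 ± 0.43 (0.252). In the lower part, every gene tested was called lower, the direction in which all named genes were listed. These were the mutase Pgam1 (-0.51), the enolases Eno1 (-0.61), Eno2 (-0.74) and Eno3 (-0.65), and pyruvate kinase Pkm (-0.60). Ldha, the lactate dehydrogenase subunit that turns pyruvate into lactate, fell by 0.55, and the lactate carrier Slc16a1 had -0.02 (limma adjusted p = 0.91). Hk2, Slc2a3, Aldoc and Slc16a3 are not described because their rows were not joined or not settled, and Hk1 and Ldhb are not among the named genes.

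**Figure D2:**
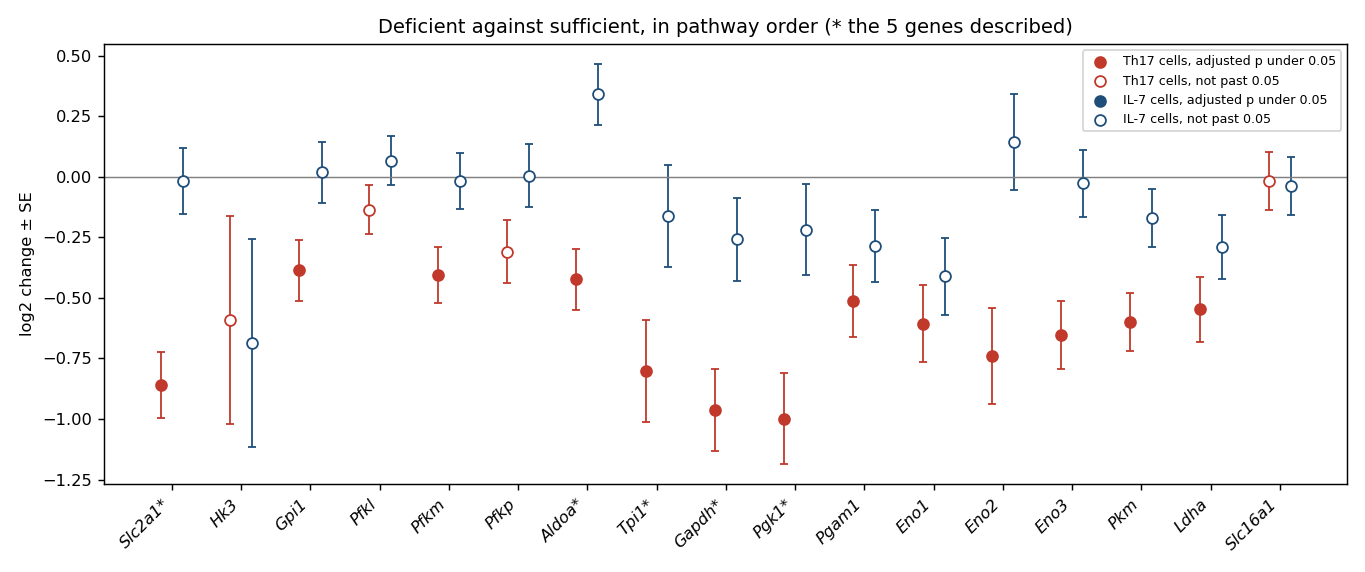
Log2 change ± SE, deficient against sufficient, of 17 genes of glucose uptake and glycolysis in pathway order, in Th17 cells (red) and IL-7 cells (blue), 4 libraries per group. Filled points have a limma adjusted p under 0.05, which 13 of 17 reach in Th17 cells and 0 of 17 in IL-7 cells. Of named rows, 55% were called lower in Th17 cells and 4.11% in either direction in IL-7 cells.

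In IL-7 cells limma called 0 of these 17 genes, and the median change was -0.04, beside 0.00 over all rows. At an unadjusted p under 0.05 there were 3, namely Aldoa (0.34), Eno1 (-0.41) and Ldha (-0.29). With voom weights 0 were called, and without D3TAM955 2 were called, 1 higher and 1 lower. The interaction was called for 6 of 17, beside 34.8% of named rows, which adds Eno2 (-0.88) and Eno3 (-0.63) to the 4 genes above. That count was 5 without D3TAM955 and 10 without BASAL960.

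Around the main path, 4 of 5 tested genes of fructose 2,6-bisphosphate metabolism and side branches fell in deficient Th17 cells. These lists are small, and 55% of named rows were called lower in this contrast, so their counts are given as descriptions. The full lists held 12 genes here, 13 for pyruvate entry, 9 for the pentose phosphate pathway and 9 for serine and one-carbon synthesis. Their other genes were not among the named genes, which were all listed as lower in deficient Th17 cells, so the counts do not describe whole pathways. The 4 were Pfkfb1 (-0.99) and Pfkfb4 (-0.91), which set the level of that phosphofructokinase activator, the glycerol phosphate dehydrogenase Gpd2 (-0.80) and the phosphoenolpyruvate carboxykinase Pck2 (-0.49). Pfkfb3 had -0.29 and did not pass (limma adjusted p = 0.0503). Both tested genes of pyruvate entry fell, the pyruvate dehydrogenase kinase Pdk1 by 0.63 and the phosphatase Pdp2 by 0.39. In the pentose phosphate pathway 0 of 2 fell, where 1 had an unadjusted p under 0.05 and Tkt had -0.07 (limma adjusted p = 0.6). Of serine and one-carbon synthesis 2 of 3 fell, with Mthfd1l at -0.80.

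The list of known regulators of glycolytic genes held 21 genes, of which 10 could be tested. The others were not among the named genes, which were all listed as lower in deficient Th17 cells. Of the 10 tested, 5 fell in deficient Th17 cells, a share below the 55% of named rows called lower, with a median of -0.26. Without D3TAM955, 4 of 10 fell. Among the 10 tested, the largest change was in Hif1a, the regulated subunit of HIF-1. Hif1a averaged 4885 ± 1690 normalized counts in deficient and 14230 ± 2020 in sufficient Th17 cells (SD, n = 4 each). The 2 ranges, 3032 to 6948 and 12886 to 17177, did not overlap. The change was -1.60 ± 0.18 on the log2 scale (SE, limma adjusted p = 9.6e-07). The prolyl hydroxylases that mark Hif1a protein for destruction, Egln1 (-0.53) and Egln3 (-0.86), and Vhl (-0.55), the adaptor that binds the marked protein, fell as well. Akt2, a kinase that acts in glucose uptake, fell by 0.15. Arnt, the partner of Hif1a, had -0.20 and did not pass (limma adjusted p = 0.0694).

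HIF-1 targets outside glycolysis fell in 10 of 13 cases, with a median of -0.90, beside 55% called lower and a median of -0.41 among named rows. Without D3TAM955, 10 of 13 fell. The collagen prolyl hydroxylase P4ha2 averaged 148 ± 77.4 normalized counts in deficient and 1037 ± 291 in sufficient Th17 cells (SD, n = 4 each). The change was -3.02 ± 0.37 on the log2 scale (SE, limma adjusted p = 2.43e-06). The oxidase Ero1l changed by -2.13, Ndrg1 by -1.94, the growth factor Vegfa by -1.77 and the carbonic anhydrase Car9 by -1.64. Kdm3a (-0.15), Mxi1 (-0.02) and Plod2 (-0.16) did not pass. In IL-7 cells 0 of the 10 regulators were called, with 1 at an unadjusted p under 0.05 and 0 with voom weights, and Hif1a had -0.09 ± 0.18. Of the 13 targets 1 was called there, Mxi1, which rose by 0.46 (limma adjusted p = 0.0292). The count was 0 without BASAL960, and 3 without D3TAM955, of which 2 were lower. The interaction was called for 11 of 13 targets and 5 of 10 regulators, beside 34.8% of named rows, and was -1.51 ± 0.26 for Hif1a (limma adjusted p = 0.000229). The named rows were all listed as lower in deficient Th17 cells, which bears on the direction of the interaction too, and nothing is read from it.

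**Figure D3:**
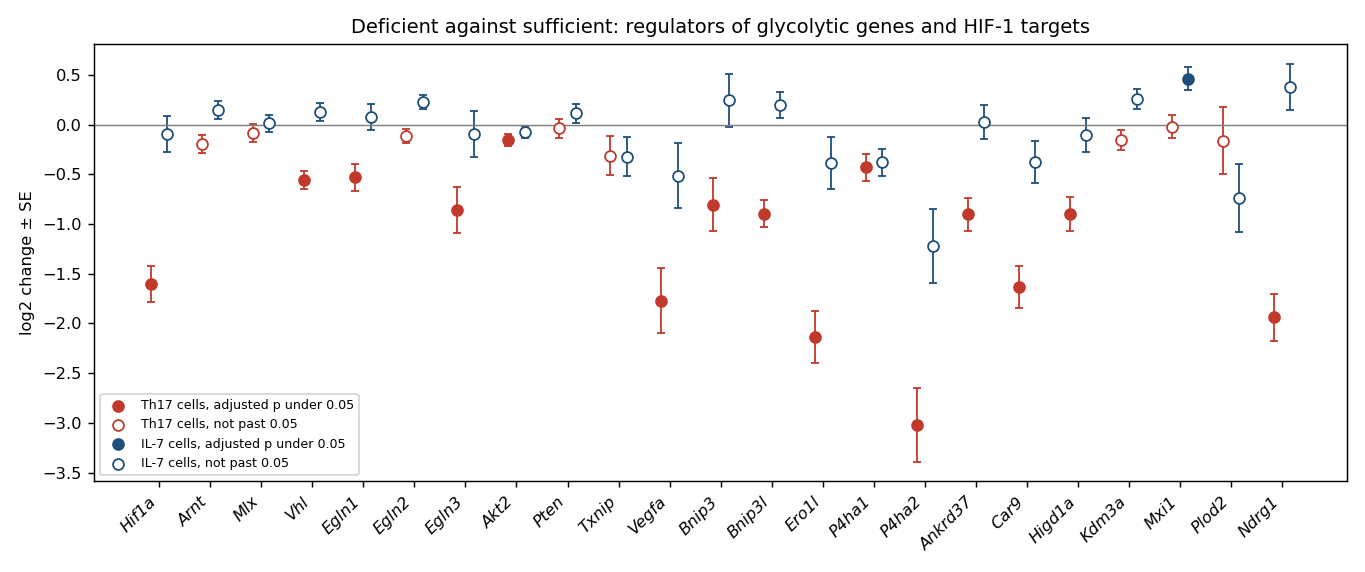
Log2 change ± SE, deficient against sufficient, of 10 regulators of glycolytic genes (Hif1a to Txnip) and 13 HIF-1 targets outside glycolysis (Vegfa to Ndrg1), in Th17 cells (red) and IL-7 cells (blue), 4 libraries per group. In Th17 cells 5 regulators and 10 targets are filled (limma adjusted p under 0.05), with P4ha2 lowest at -3.02, and in IL-7 cells only Mxi1 is.

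T cell markers moved in the same comparison. Cd3d, Cd3e, Cd4 and Thy1, whose sums are given above, were each called lower in deficient than in sufficient Th17 cells, with Cd3d at -0.97 and Cd4 at -0.42, beside 55% of named rows. Cd247, a T cell receptor subunit gene outside that sum, had -0.10 and was not called (limma adjusted p = 0.188). The other cell types had few named rows. The sum of the B cell markers Cd79a and Blk (2 of 10 listed) was 53.3 to 180 normalized counts in deficient and 126 to 300 in sufficient Th17 libraries, and 114 to 181 in deficient and 283 to 890 in sufficient IL-7 libraries. The myeloid marker Cd68 (1 of 10) had 52.5 to 66.8 in deficient and 120 to 175 in sufficient Th17 libraries. The CD8 and natural killer cell markers Cd8b1 and Prf1 (2 of 9) summed to 93.0 to 185 in deficient and 209 to 464 in sufficient Th17 libraries. None of these markers was at 0 in a group, and their part in the glycolytic changes was not tested.

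All 5 genes were higher in Th17 than in IL-7 cells. Among deficient cells, limma called 37.9% of all rows and 28.6% of named rows higher in this contrast. Among sufficient cells, it called 36.5% of all rows and 41.1% of named rows higher. In deficient cells Th17 libraries were above IL-7 libraries by 14.2-fold for Tpi1, 7.69-fold for Pgk1, 5.69-fold for Gapdh, 3.91-fold for Aldoa and 3.56-fold for Slc2a1. In sufficient cells the folds were 22.2 for Tpi1, 13.2 for Pgk1, 9.27 for Gapdh, 6.64 for Aldoa and 6.38 for Slc2a1. Every limma adjusted p was 8.24e-10 or lower. The order of the 5 was the same in both, and the lowest deficient Th17 library exceeded the highest IL-7 library for each gene. The number of other rows that separate by stage in this way was not counted. The test of the difference between the 2 folds is the interaction already given, since it is the same contrast of 4 means.

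**Figure D4:**
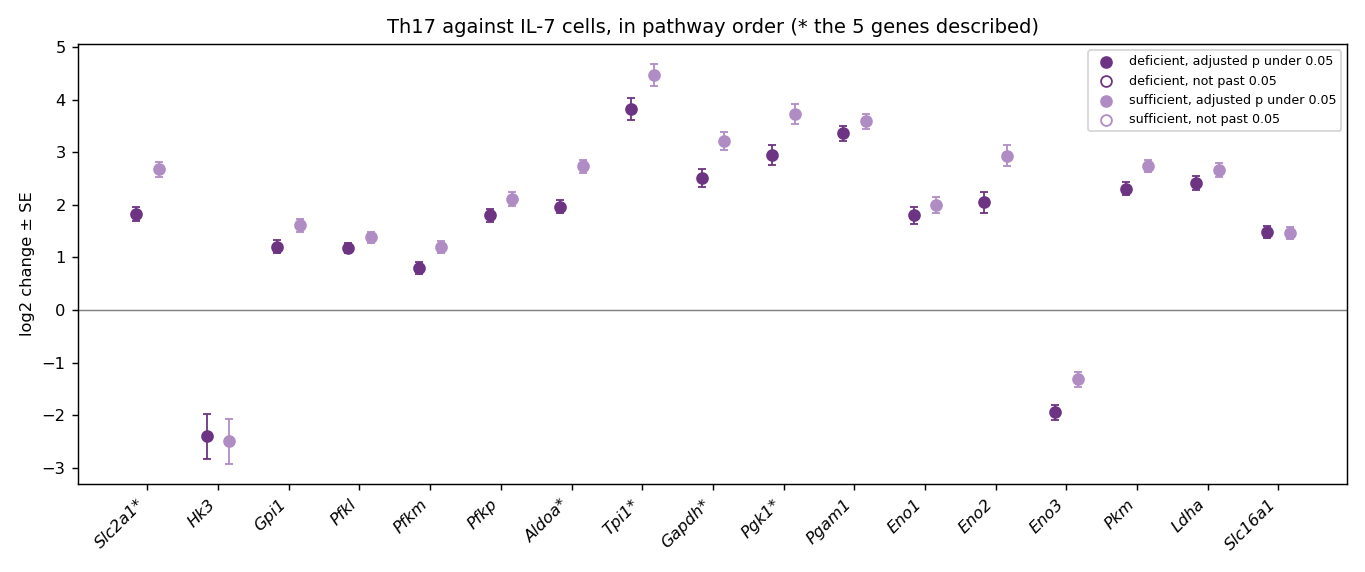
Log2 change ± SE, Th17 against IL-7 cells, of the 17 pathway genes in deficient (dark) and sufficient (light) cells, 4 libraries per group. All points have a limma adjusted p under 0.05, 15 genes lie above 0 in both, and Hk3 and Eno3 lie below 0 in both.

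Of the 17 pathway genes 15 were higher and 2 lower after polarization, in deficient as in sufficient cells. The mutase Pgam1 changed by 3.36 on the log2 scale in deficient and 3.59 in sufficient cells, Ldha by 2.41 and 2.66, and Pkm by 2.31 and 2.74. The 2 that fell were Hk3 (-2.41 in deficient and -2.50 in sufficient cells) and Eno3 (-1.95 and -1.32). The median was 1.83 in deficient and 2.66 in sufficient cells, beside -0.05 and -0.06 over all rows. Over named rows the medians were -0.33 and 0.07. Named rows were all listed as lower in deficient Th17 cells, which bears on the smaller rise in deficient cells, and nothing is read from it. Hif1a itself rose 1.69-fold in deficient and 4.81-fold in sufficient cells. Egln3, a HIF-1 target as well as a brake on it, rose 59.7-fold in deficient and 101-fold in sufficient cells.

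The 5 genes also varied together from library to library. Within the deficient Th17 group all 5 were lowest in D3TAM955, at -0.68 (Pgk1) to -0.48 (Aldoa) on the log2 scale from the mean of the group. The other 3 libraries of that group lay 0.13 to 0.24 above the mean when averaged over the genes. D3955 had all 5 below the mean of its group as well, by 0.15 on average. At the IL-7 stage BASALTAM960 and BASAL960 stood highest, at 0.21 and 0.38 on average, led by Tpi1 at 0.41 and 0.69. Slc2a1 was at -0.01 in BASAL960.

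**Figure D5:**
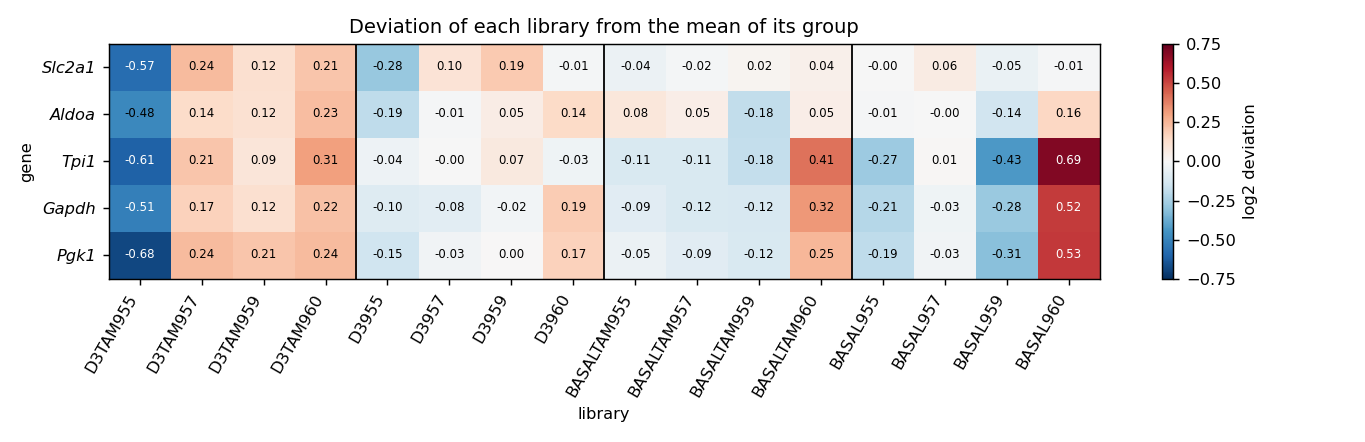
Log2 deviation of each of the 5 genes (rows) in each of the 16 libraries (columns) from the mean of its group of 4, with black lines between groups. D3TAM955 is low for all 5 genes (-0.68 to -0.48), and BASAL960 is high for Tpi1, Gapdh and Pgk1 (0.52 to 0.69) but not for Slc2a1 (-0.01).

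After subtraction of the group means, Pearson's r over the 16 libraries was 0.979 between Gapdh and Pgk1, 0.962 between Tpi1 and Gapdh and 0.945 between Tpi1 and Pgk1. It was 0.574 between Slc2a1 and Tpi1 and 0.580 between Slc2a1 and Gapdh, so the 3 enzymes of the triose steps tracked each other more closely than the transporter tracked them. These values are descriptions over libraries that share depth and scaling, and D3TAM955 and BASAL960 weigh heavily in them.

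Ratios of 2 genes within a library do not depend on scaling, and 10 pairs were compared by an exact two-sided permutation test, whose smallest possible p with 4 against 4 libraries is 0.0286. In Th17 cells the ratios of Aldoa to the other 3 enzymes were higher in every deficient library than in any sufficient one. Its log2 ratio to Gapdh was 0.03 ± 0.03 in deficient and -0.51 ± 0.08 in sufficient cells (SD, n = 4 each), a difference of 0.54. The differences were 0.57 for Aldoa to Pgk1 and 0.38 for Aldoa to Tpi1, and -0.43 for Slc2a1 to Aldoa. Each of these 4 had groups that did not overlap and an exact permutation p of 0.0286, or 0.0714 adjusted over the 10 pairs, so none passed after adjustment. Gapdh to Pgk1 differed by 0.04 (exact permutation p = 0.83), with ratios of 2.19 ± 0.12 in deficient and 2.15 ± 0.04 in sufficient Th17 cells. In IL-7 cells Aldoa to Gapdh differed by 0.60 and Aldoa to Pgk1 by 0.56, each with an exact permutation p of 0.0286, or 0.143 adjusted.

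Among 4640 named rows, the genes whose log2 values followed the 5 most closely over all 16 libraries were Pkm, with a mean Pearson's r of 0.993, the glycogen synthase Gys1 (0.99), the peroxiredoxin Prdx4 (0.99), Pfkfb3 (0.989) and Higd1a (0.989). The median over all these rows was -0.297. With the group means subtracted they were Eno1 (0.905), the cytokine Mif (0.890), Pkm (0.884), the mitochondrial protein gene Prelid1 (0.869) and Pfkfb3 (0.855), where the median was 0.0490. Gys1 averaged 986 ± 231 normalized counts in deficient and 1726 ± 177 in sufficient Th17 cells, and 217 ± 24.8 in deficient and 228 ± 18.5 in sufficient IL-7 cells (SD, n = 4 each). Mif averaged 13153 ± 2694 in deficient and 16021 ± 1754 in sufficient Th17 cells, and 2513 ± 118 in deficient and 2744 ± 446 in sufficient IL-7 cells. Likeness over 16 libraries mostly reflects the 4 group means, and these values are a description.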

How the data were processed

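Stranded poly(A) libraries of 16 samples were sequenced. Per the submitters' processing notes, the tools were Trim Galore 0.4.4, STAR 2.6, featureCounts, edgeR and DESeq2, and the genome build was NCBIM37. The settings the authors chose are not given. Per the file headers, the deposited table gives for 8551 named genes the authors' mean normalized count (a signal), log2 fold change, its standard error, a test statistic (a score), and p-values before and after adjustment, and for 17850 rows 16 columns of normalized counts. The deposited columns had lost their decimal points, so their digits are a score from which counts had to be restored, and their rows were not in the order of the names. The header BASAL_AM959 was read as BASALTAM959, the only sample title it could stand for. No other per-sample column was left aside (0).

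Within a library, normalized counts are whole reads times 1 step, which held for 99.993% of values above 0. Powers of 10 were set by the likeness of the 4 libraries of a group under a negative binomial model, and 8.60% of these values were raised. Rows with a posterior of at least 0.95 in every group were settled (14487), with 0.99 asked where 3 libraries were raised. Of the 5 genes, 1 to 3 values each were raised, with posteriors of at least 0.971. The Th17 groups of named rows counted as settled by the join. Names were joined by refitting the authors' log2 fold change to the reads of each row, at the dispersion behind their standard error, with a tolerance of 1e-06 and the next row 20 times worse. The authors' mean normalized counts were not the means of these 16 libraries, so their dispersions may rest on other libraries too, not used here. The join gave 7723 genes, and 10 of 1000 shifted decoys were joined. On simulated data with known answers, 99.9% of settled rows came out exact, and 991 of 1000 genes found their own row. The weights of the dispersions were set after Tpi1 had missed the limit under equal weights.

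limma 3.58.1 (R 4.3.3, trend) was run on log2(normalized count + 1) of settled rows with at least 10 reads in at least 4 libraries, with 4 group means over 16 libraries and Benjamini-Hochberg adjustment over 14040 rows at 0.05. A log2 change is on that scale. For Th17 deficient against sufficient cells, a simulation on 14040 rows recovered 106 of 200 changes of log2 size 1. Correlations, ratios and promoter matches were computed in Python 3.11.15 with NumPy 2.4.6 and SciPy 1.17.1. Named genes are the 5, the tested pathway genes, up to 4 called genes per other list and comparison with the largest change, the 5 closest genes per likeness measure and Sin3a, and other genes named, among them the Th17 marker Il17a and uncalled genes of the lists, were added after their values were seen. The members and lists were chosen with earlier results of these data known. Nothing in the labels ties a library to its own mouse, and the spread behind each p may be technical. Some genes of the lists are not reported here. Alternatives were the pseudocount, filter, scaling, trend, groups fitted, replicate block, unsettled rows, left-out libraries and, chosen after seeing the data, voom weights.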

Additional observations from a re-analysis of the deposited data

Results flagged for a closer look

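In 5 cases a library stood apart from the other 3 of its group, by a rule that flags about 1 in 20 groups by chance. In deficient Th17 cells this was D3TAM955, lowest for Gapdh at 27318 normalized counts and for Pgk1 at 5325. In deficient IL-7 cells BASALTAM960 was highest for Tpi1, at 1393, and for Gapdh, at 8565, and BASALTAM959 was lowest for Aldoa, at 8948.

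The interaction of deletion and stage (Th17 or IL-7) was called for Slc2a1 (-0.84 on the log2 scale), Aldoa (-0.76), Gapdh (-0.70) and Pgk1 (-0.78). Of named rows, 34.8% were called in the same direction. Named rows were all listed as lower in deficient Th17 cells, so nothing is read from that direction. The call was lost under 9 of 29 alternatives for Gapdh and 8 of 29 for Pgk1. For Aldoa the deletion effects at the 2 stages had opposite signs, -0.42 in Th17 cells and 0.34 in IL-7 cells. The second was not called.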

How the results depend on the processing

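In deficient against sufficient Th17 cells, each of the 5 genes stayed lower and called under all 30 alternatives, and the pathway list gave 12 to 14 called genes. The lower direction comes with the naming and the join, which no alternative changed, so nothing is read from its staying the same. In both polarization contrasts each stayed higher and called. The IL-7 contrast gave 601 called rows, and 41 to 722 with libraries left out, lowest without the 4 libraries that share the ending of BASAL957 (41) or of BASAL959 (133), and it was 268 to 361 without BASALTAM955, BASALTAM957, BASALTAM959 or BASAL957 singly. Its pathway count of 0 was 0 to 2 with libraries left out. Slc2a1 there had -0.0415 to 0.00654 with libraries left out, and its sign turned without BASAL957 (0.00133) and without all 4 of that ending (0.00654). Tpi1 had -0.306 to 0.0688, and its sign turned without BASAL960 (0.0688). Aldoa had 0.292 to 0.401, Gapdh -0.366 to -0.0840 and Pgk1 -0.323 to -0.0428, the last 2 nearest to 0 without BASAL960. The interaction gave 5341 called rows, and 3269 to 5781 with libraries left out, lowest without the 4 that share the ending of BASAL957. Its pathway count of 6 was 2 to 10 with libraries left out, lowest without the same 4 and highest without BASAL960. In the interaction Tpi1 ranged over -0.870 to -0.396 and was called without BASAL960 (-0.870) and without all 4 of that ending (-0.847). Gapdh (-0.879 to -0.524) lost the call without D3TAM955 and Pgk1 (-0.956 to -0.552) kept it. Both lost it without D3960, BASALTAM960, BASAL955 or BASAL959 singly and without any 4 libraries of 1 ending other than that of BASAL960. Without a trend in the fit Gapdh (-0.705, limma adjusted p = 0.0523) and Pgk1 (-0.779, 0.0536) lost it too. The cause of these losses was not tested.

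Libraries with the same ending had deviations from their group means that correlated at 0.00798 to 0.404 over 24 pairs, and in 39 of 48 cases a library was closest to the one of its own ending, a hint from the data. The endings were not taken as pairing. With the replicate block the interaction was called for 10 of 17 pathway genes and for Tpi1 (-0.638, limma adjusted p = 0.0340), and 889 rows were called in IL-7 cells. The edgeR and DESeq2 alternatives were not run, since the digits pass as a score and not as counts, and the interaction could not be fitted on 2 groups. Where a library was left out, the spread was shared with the other groups. Depth limits low rows, and 3363 rows were not settled.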
